A study of Arabidopsis thaliana with 24 samples.

Results

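The data describe how far the response of Arabidopsis thaliana seedlings to sucrose depended on light, gene by gene, in total RNA. For each of 30386 gene features on the array, the change with sucrose in darkness was subtracted from the change with sucrose in light. A positive difference therefore means that sucrose raised the transcript more, or lowered it less, in light than in darkness. A negative difference means the reverse. All 12 total RNA arrays of the 24 arrays in the series entered the comparison, and no feature was selected beforehand.

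The seedlings were of the wild-type accession Columbia (Col-0), grown in liquid culture under constant light. The study's methods give their age as 10 days and the sample labels as 7 days. In the light control group, the medium held 150 mM sorbitol, a sugar alcohol used as an osmotic counterpart of sucrose, and in the light sucrose group 150 mM sucrose, for 6 h in light. The dark control and dark sucrose groups received the same media for 6 h in flasks wrapped in foil. Each group held 3 arrays, numbered replicate 7, 8 and 9, and each array came from a culture of its own. All groups thus shared the medium change and the constant light before the treatment, and the total RNA was an aliquot of the extract that was also used to collect polysomes.

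Sucrose is both the transported form of fixed carbon and a signal. In Arabidopsis it is known to induce anthocyanin and starch synthesis and to repress genes of photosynthesis and of carbon starvation. In an illuminated seedling, sugar supplied from outside adds to the sugar made by photosynthesis, while in darkness photosynthesis makes none. The comparison asks which of these transcript responses were the same with and without light.

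Values are log2 expression values made by RMA, and a difference of 1 is a change by a factor of 2. Whole seedlings were used, and marker genes of both shoot and root were found, though not all at a clear level. Of the 12 root markers 6 had a highest group mean above 6.4, the median over all features, and of the 7 shoot surface markers 6. PSBO1, of photosystem II, lay between 12.8 and 13.2 in the 4 group means, and PYK10, a root beta-glucosidase, between 11.1 and 12.3. EXPA7, an expansin of root hairs, was low, between 5.03 and 5.53. None of the 12 root markers and none of the 7 shoot surface markers was called by limma for the difference described here, with 0 and 2 at an unadjusted p under 0.05. In RNA from whole seedlings, fewer cells of a type and less RNA per cell cannot be told apart.

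A difference was called at a Benjamini-Hochberg adjusted p under 0.05 in limma over all features, with no minimum size. By this rule 1912 features (6.29% of those tested) had a sucrose effect that differed between light and darkness. In 774 of them (2.55%) the difference was positive and in 1138 (3.75%) it was negative, so that the calls with a higher sucrose effect in darkness were the more frequent. This balance depended on the fit: array weights gave 1895 positive and 1801 negative calls, and the filter on low values 1435 and 1457. Another 4378 features had an unadjusted p under 0.05 only. The median absolute difference of the called features was 1.13, and the smallest was 0.51. The range ran from -5.31 at AT3G46080 to 3.60 at LDOX. Over all features the median was 0.06, with quartiles of -0.20 and 0.30. Large differences were mostly on the dark side: of the 1119 calls above 2-fold, 838 were negative and 281 positive.

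**Figure D1:**
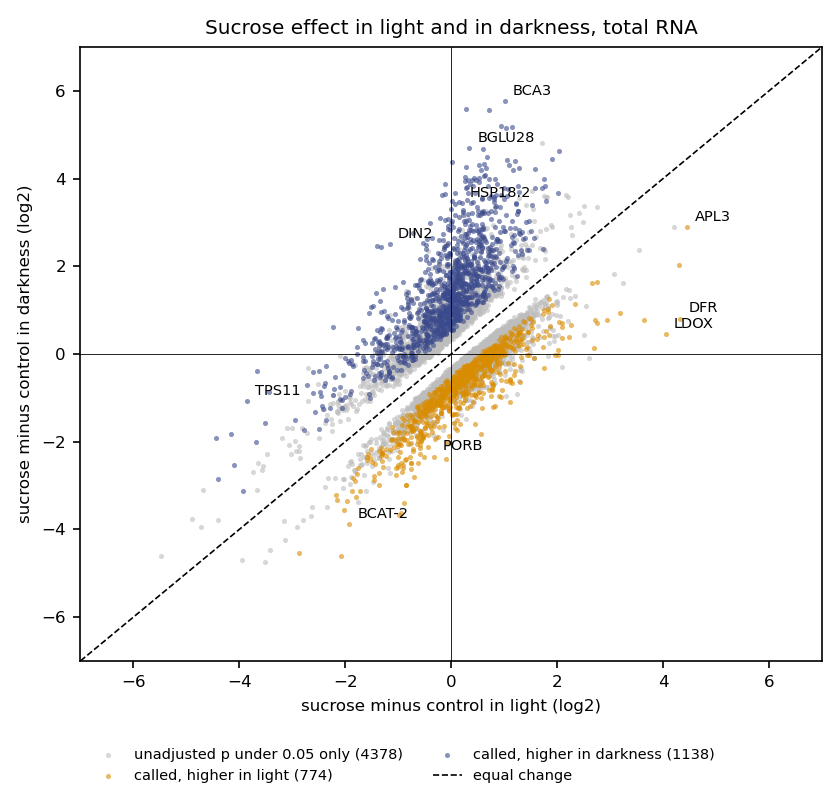
Change with sucrose in light (horizontal axis, log2) against the change in darkness (vertical axis, log2) for the 6290 features with an unadjusted p under 0.05 for the difference. Orange points are the 774 called features with a higher sucrose effect in light and blue points the 1138 with a higher effect in darkness, and points on the dashed line would have changed equally. The blue cloud stretches up along the vertical axis, with rises in darkness at genes that hardly moved in light.

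Each called feature was sorted by what sucrose did in each condition alone, with a rise or a fall counted at an adjusted p under 0.05 and a change above 2-fold. By that rule 2525 features (8.31%) changed with sucrose in light and 3353 (11%) in darkness. The most frequent pattern among the 1138 negative differences was a rise in darkness with no call in light, at 633 features. In 118 the transcript fell in light with no call in darkness, in 57 it rose in both conditions and in 19 it fell in both. In 303 it passed the rule in neither condition. Among the 774 positive differences, 226 fell in darkness and 97 rose in light with no call in the other condition, 52 fell in both, 9 rose in both and 389 passed in neither. Calls of opposite direction were rare, with 8 features that fell in light and rose in darkness and 1 that did the reverse.

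Since the difference joins 4 group means, the levels show which treatment set it apart. For each called feature, the treatment whose mean lay farthest from the mean of the other means was recorded, as a description. The sign of the difference fixes the side on which that treatment lies, so only the choice of treatment is an observation. Among the 1138 negative differences this was dark sucrose, lying above the rest, in 880 (77.3%) and light sucrose, lying below, in 192 (16.9%). The light control lay above in 42 and the dark control below in 24. The 774 positive differences were more evenly spread: dark sucrose lay below in 351 (45.3%), light sucrose above in 218 (28.2%), the dark control above in 152 (19.6%) and the light control below in 53 (6.85%).

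**Figure D2:**
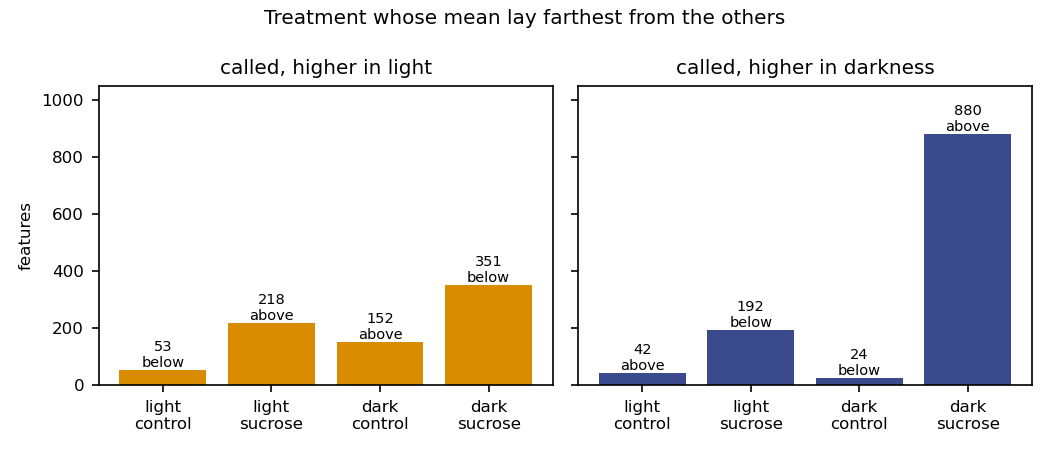
Number of called features (vertical axis) by the treatment whose mean lay farthest from the others. The side on which it lay, which the sign of the difference fixes, is printed above each bar. Dark sucrose accounts for 880 of the 1138 features with a higher sucrose effect in darkness, while the 774 with a higher effect in light are divided over all 4 treatments.

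The 12 expressed features with the most negative differences all had dark sucrose as the group apart. The choice by size and the cut on the highest group mean (6.4) partly fix this, since several were above the cut in dark sucrose alone. BCA3 (AT1G23730), which encodes a beta carbonic anhydrase, is annotated by the array on chromosome 1 from 8395557 to 8398144. It stood at 4.93, 5.07 and 5.77 in the light controls, 6.30, 5.76 and 6.74 in light sucrose, 5.20, 5.48 and 5.14 in the dark controls, and 10.8, 11.1 and 11.2 in dark sucrose, in the order of replicates 7, 8 and 9. All dark sucrose arrays were far above every other array, while the light sucrose arrays lay just above or within the range of the controls. Sucrose raised BCA3 54.5-fold in darkness and 2.02-fold in light, a difference of -4.76 (SE 0.37, limma adjusted p = 0.000125).

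BGLU28 (AT2G44460) encodes a beta-glucosidase of the group that can break down glucosinolates, the sulfur-containing defence compounds of the cabbage family. Its level was 4.50, 4.64 and 4.53 in the light controls and 4.80, 4.79 and 5.10 in light sucrose. It was 4.49, 4.92 and 4.35 in the dark controls and 8.92, 9.41 and 9.53 in dark sucrose. The light sucrose and both control groups lay within 1 log2 unit of each other, and only the dark sucrose arrays stood out (difference -4.36, SE 0.26, adjusted p = 3.51e-05). The feature with the smallest p of all was AT2G29500, at 5.07, 4.78 and 4.94 in the light controls, 5.20, 5.28 and 5.15 in light sucrose, 4.88, 4.41 and 4.56 in the dark controls and 8.77, 9.0 and 8.84 in dark sucrose (difference -3.97, SE 0.19, adjusted p = 6.34e-06). No other array of AT2G29500 came near those of dark sucrose.

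AT3G46080, with the most negative difference, rose 48.4-fold in darkness, from 3.70, 5.02 and 4.44 to 9.60, 9.73 and 10.6. In light it stood at 4.26, 5.19 and 4.90 without and at 4.62, 4.72 and 5.87 with sucrose, so that these groups overlapped (difference -5.31, SE 0.59, adjusted p = 0.000757). ZAT7, a zinc finger protein of the stress response, is the neighbouring locus AT3G46090 on the same strand, and showed a difference of -3.58. How well the probes tell these loci apart was not tested. The other features of this set included GPAT2, a glycerol-3-phosphate acyltransferase (-4.00), ABCG40, a transporter known to import abscisic acid (-4.12), and PAD3, the cytochrome P450 of the last step of camalexin synthesis (-4.03). AOX1D, an alternative oxidase, is described with the mitochondrial genes. AT1G56060 (-4.86), AT5G57510 (-4.37), AT4G21730 (-4.08) and AT2G36770 (-3.87) are given by locus only.

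Among the gene lists, heat shock proteins had one of the highest shares of calls. The lists were chosen with earlier results of these data known, so the ranking of their shares is a description only. These chaperones hold or refold unfolded proteins, and their genes are known as targets of heat shock factors. Of 22 heat shock features, 16 (72.7%, against 6.29% of all features) were called, all with a higher sucrose effect in darkness. The median difference of the list was -1.72. The median change was 2.15 in darkness and 0.06 in light. Sucrose raised 16 of the 22 features in darkness, against 4 in light. In 15 of the 16 called features the dark sucrose group was the one apart.

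HSP18.2 (AT5G59720, chromosome 5, 24062577 to 24063277), a small cytosolic chaperone, stood at 5.36, 5.01 and 5.06 in the light controls and 5.56, 5.41 and 5.06 in light sucrose. In darkness it went from 4.87, 5.28 and 4.76 to 8.60, 8.54 and 8.08, or 10.8-fold. The light groups overlapped with each other and with the dark controls (difference -3.24, SE 0.27, adjusted p = 0.000172). HSP17.6II, another cytosolic small chaperone, had the same form, with 4.06, 4.79 and 4.06, then 4.19, 4.65 and 4.24 in light, and 4.13, 4.71 and 4.24, then 7.67, 7.79 and 7.86 in darkness (difference -3.35, adjusted p = 0.000302). HSP21, a small heat shock protein of plastids, had 4.19, 4.43 and 4.4, then 3.96, 4.17 and 4.26 in light, and 4.16, 3.96 and 4.44, then 7.21, 7.86 and 6.82 in darkness (difference -3.32, adjusted p = 0.00036).

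The heat shock features with a call extended over cell compartments and chaperone classes. HSP23.6-MITO, a small chaperone of mitochondria, differed by -3.22, HSP90.1 by -2.20 and HSP70 by -2.00, and each of these also rose with sucrose in light, by 1.1, 1.23 and 1.25. HSP101, the large chaperone that dissolves protein aggregates, rose in darkness from 5.87, 5.87 and 6.17 to 7.94, 8.29 and 8.45. Its light values were 6.01, 5.88 and 6.25 without and 6.43, 6.17 and 6.81 with sucrose, and these groups overlapped (difference -1.83, SE 0.26, adjusted p = 0.00277). The heat shock factor HSFA2, a transcriptional activator of such genes, was called with -1.28 (adjusted p = 0.0485). GolS1, which makes galactinol, was the exception in pattern: it fell by 1.56 in light, with a change of 0.93 in darkness that was not called. The heat shock features that were not called included MBF1C (-1.27, adjusted p = 0.11), HSFB2A, ROF1 and HSFA7A.

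**Figure D3:**
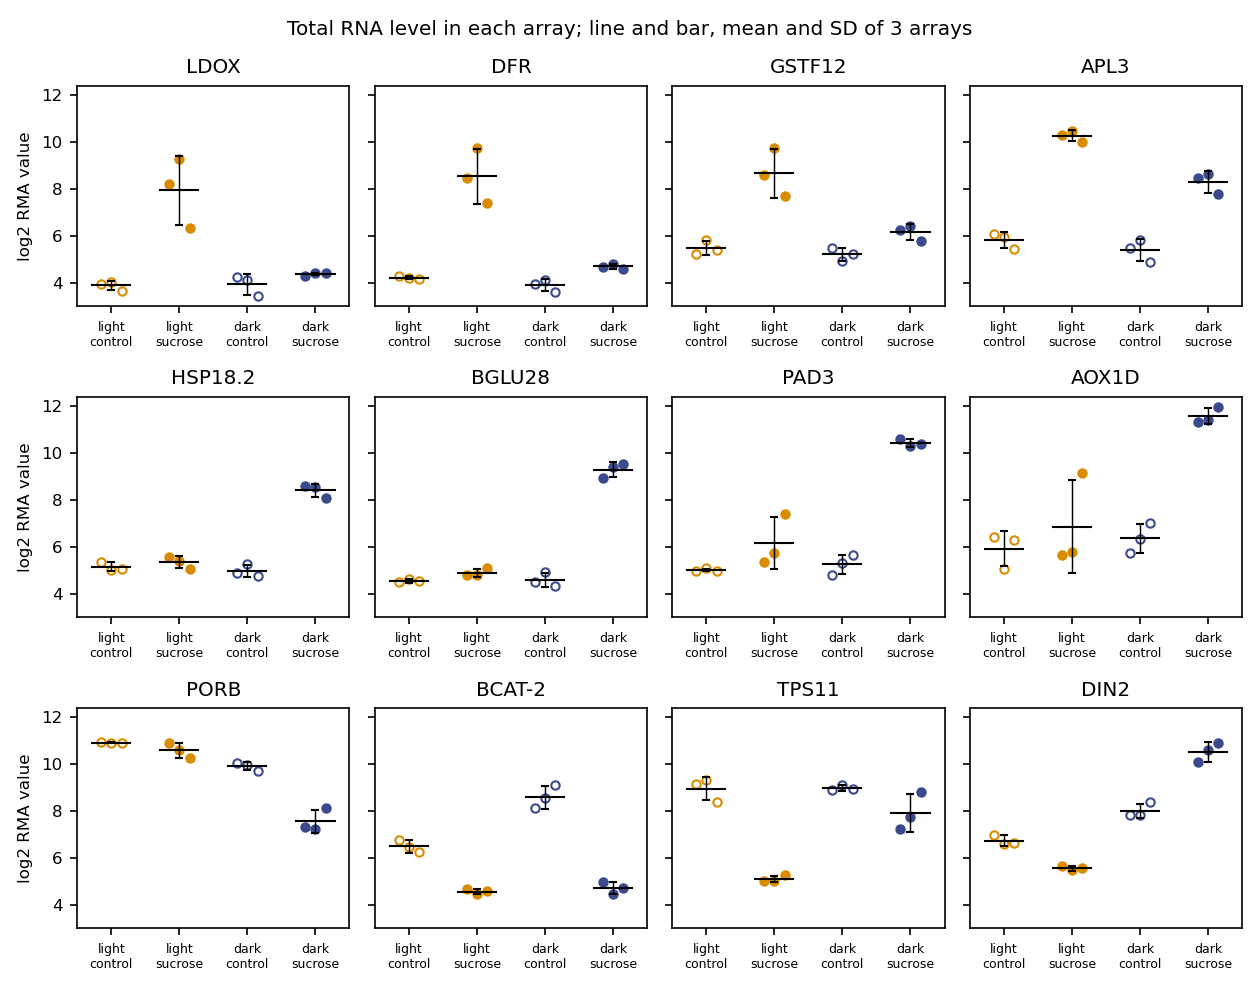
Log2 RMA values of 12 genes in each of the 12 total RNA arrays, with open circles for controls and filled circles for sucrose, orange for light and blue for darkness, replicates 7, 8 and 9 from left to right, and the mean and SD of 3 arrays. The rise with sucrose passed the threshold in light and not in darkness at LDOX, DFR and GSTF12, and in darkness and not in light at HSP18.2, BGLU28, PAD3 and AOX1D, while DIN2 fell in light and rose in darkness.

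Genes of mitochondrial and oxidative stress rose in darkness as a group. In plants the alternative oxidases and alternative NADH dehydrogenases carry electrons past the main respiratory complexes, and their genes respond to disturbed mitochondria through the factor NAC13. All 9 features of this list rose with sucrose in darkness, and 4 rose in light. The difference was called in 7 of the 9 (77.8%, against 6.29% of all features), each time with a higher effect in darkness. The median difference was -1.90. AOX1A, the main alternative oxidase gene, was at a mean of 9.63 in the light control, 10.15 in light sucrose, 9.74 in the dark control and 12.2 in dark sucrose (difference -1.95, adjusted p = 0.000872). NDB2, an alternative NADH dehydrogenase, differed by -1.56, NAC13 by -1.53, and SOT12, a sulfotransferase, by -1.90. GSTU24 and GSTU25, glutathione transferases, had estimates of -1.85 and -1.48 that were not called (adjusted p = 0.11 for both).

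AOX1D showed the largest difference of the mitochondrial and oxidative stress list and also the widest spread. Its values were 6.40, 5.07 and 6.30 in the light controls, 5.65, 5.80 and 9.14 in light sucrose, 5.73, 6.34 and 7.00 in the dark controls and 11.3, 11.4 and 12 in dark sucrose. The light sucrose array of replicate 9 lay about 3 units above the other light sucrose arrays, yet below every dark sucrose array (difference -4.27, SE 1.08, adjusted p = 0.0409). The call of AOX1D was lost with 9 of the 12 arrays left out singly, with adjusted p between 0.066 and 0.10. UGT74E2, a glucosyltransferase of an auxin precursor, had 7.08, 7.53 and 9.32 in light sucrose against 11.3, 11.5 and 12.2 in dark sucrose, with controls between 6.50 and 7.67, and BCS1, a mitochondrial AAA protein, differed by -2.19.

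The light sucrose array of replicate 9, itself part of the fit that made the calls, also ranked differently in its group at called features. Among the 1138 features with a higher effect in darkness it was the highest of its 3 arrays in 60.8%, against 43.8% over all features, and among the 774 with a higher effect in light it was the lowest in 50.5%, against 35.8% over all features. The dark sucrose array of replicate 9 was the highest of its group in 74.3% of the 1138 features, against 38.5% over all. The median change from the mean of the light controls over the 1138 features was nevertheless small in each light sucrose array, at -0.06, -0.13 and 0.10 for replicates 7, 8 and 9. It was 1.16, 1.25 and 1.49 in the dark sucrose arrays from the mean of the dark controls. Without the light sucrose array of replicate 9, 2171 features were called, 1655 of them among the 1912, and without the dark sucrose array of replicate 9, 1363 were called, 1275 of them among the 1912.

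Defence and wound signalling genes were the next of the lists by share of calls. Of 29 features, 15 were called with a higher sucrose effect in darkness, 1 with a higher effect in light and 13 were not called. The share called was 55.2%, against 6.29% of all features, and the median difference was -1.36. Sucrose raised 20 of the 29 in darkness and 1 in light. PAD3 stood at 4.98, 5.08 and 4.98 in the light controls, 5.34, 5.73 and 7.41 in light sucrose, 4.81, 5.30 and 5.65 in the dark controls and 10.6, 10.3 and 10.4 in dark sucrose, again with the replicate 9 array above the others of light sucrose (difference -4.03, SE 0.59, adjusted p = 0.00289). MPK11, a mitogen-activated protein kinase of the immune response, went from 5.52, 5.02 and 5.89 to 9.45, 9.77 and 10.5 in darkness and from 5.30, 4.92 and 5.51 to 6.49, 5.50 and 6.92 in light (difference -3.37, adjusted p = 0.0037).

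The defence and wound features called included 5 zinc finger genes of the stress response: besides ZAT7, RHL41 differed by -3.17, ZAT6 by -2.17, CZF1 by -1.85 and SZF1 by -1.72. EDS1 (-1.18) and PAD4 (-1.14), lipase-like partners in immune signalling, and the chitin receptor gene CERK1 (-1.0) were called with smaller differences. The exception was PR5, a thaumatin-like protein and marker of salicylic acid responses, which rose in light from 6.17, 5.82 and 5.12 to 7.36, 7.58 and 7.72. In darkness PR5 had 5.92, 5.41 and 5.93 without and 6.41, 6.18 and 6.0 with sucrose (difference 1.41, adjusted p = 0.0351). PR1, the other marker of that pathway, had an estimate of 0.40 and was not called.

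Other families of stress, jasmonate and ethylene signalling had fewer calls, almost all with the same sign. The auxin families, with calls of both signs, are given with the growth genes. Of 71 features of WRKY factors, transcription factors of defence, 9 were called (12.7%, against 6.29% of all features). All had a higher effect in darkness, led by WRKY40 (-2.11), WRKY55 (-1.98) and WRKY8 (-1.92), and the median was -0.18. Of 29 tau glutathione transferases, 4 were called in that direction (13.8%), with a median of -0.83. GSTU4 was the most changed, with 3.84, 4.27 and 4.80 in light sucrose and 7.17, 7.72 and 7.87 in dark sucrose against controls between 3.83 and 4.50. In the jasmonate list 5 of 23 were called (21.7%). Among them were LOX4 (-2.51) and AOC3 (-1.42), enzymes of jasmonate synthesis, and JAZ10 (-1.04), a repressor of the response. Of 47 ethylene response factors, 5 were called with a higher effect in darkness and ERF7 with a higher effect in light (12.8% in all). Of 23 features of glucosinolate synthesis, UGT74B1, SOT16 and MYB122 were called (13%), all negative, while 12 of the 23 estimates were positive and the median was 0.05.

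Hypoxia genes respond to low oxygen with a shift to fermentation. Of 14 features, 1 was called (7.14%, near the 6.29% of all features): SUS1, a sucrose synthase, at 6.59, 6.15 and 6.34 in light sucrose and 7.80, 7.71 and 8.16 in dark sucrose (difference -1.23, adjusted p = 0.00977). The median of the 14 was -0.64, and 7 had an unadjusted p under 0.05. ADH1, alcohol dehydrogenase, rose in darkness from 8.06, 7.99 and 8.18 to 9.38, 9.41 and 10.2, with 7.71, 7.60 and 7.46, then 8.37, 8.21 and 8.92 in light. Its difference of -0.68 was not called (adjusted p = 0.255), and that of HB1, a non-symbiotic haemoglobin, was -1.99 (adjusted p = 0.17).

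Among the positive differences, the genes of anthocyanin synthesis led. Anthocyanins are red pigments made from phenylalanine through chalcones and dihydroflavonols, and DFR and LDOX catalyse late steps of this route. Of 23 flavonoid and anthocyanin features, 5 were called (21.7%, against 6.29% of all features), all with a higher sucrose effect in light. The median difference was 1.01. Sucrose raised 13 of the 23 in light and 3 in darkness. The 5 called were LDOX, DFR, GSTF12, TT5 and UGT78D2, and in each of them light sucrose was the group apart.

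LDOX (AT4G22880, chromosome 4), leucoanthocyanidin dioxygenase, stood at 3.96, 4.04 and 3.67 in the light controls, 8.21, 9.26 and 6.34 in light sucrose, 4.24, 4.13 and 3.43 in the dark controls, and 4.31, 4.41 and 4.41 in dark sucrose. Every light sucrose array was above every other array, and the dark sucrose arrays were above the dark controls by less than 1 unit. Sucrose raised LDOX 16.5-fold in light, against 1.36-fold in darkness, which was not called (difference 3.60, SE 0.76, adjusted p = 0.0189). Without light sucrose replicate 7 or without dark control replicate 8, the LDOX call was just lost (adjusted p = 0.05 and 0.051).

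DFR (AT5G42800, chromosome 5, 17164141 to 17165918), dihydroflavonol reductase, had 4.27, 4.22 and 4.17 in the light controls, 8.47, 9.74 and 7.42 in light sucrose, 3.96, 4.1 and 3.62 in the dark controls and 4.69, 4.81 and 4.61 in dark sucrose (difference 3.51, SE 0.59, adjusted p = 0.00623). Its order of replicates within light sucrose was that of LDOX, with replicate 8 the highest and replicate 9 the lowest. GSTF12, a glutathione transferase needed to carry anthocyanins to the vacuole, had the same order, at 8.59, 9.76 and 7.68 in light sucrose, against 6.24, 6.44 and 5.79 in dark sucrose and 4.94 to 5.83 in the controls (difference 2.25, SE 0.58, adjusted p = 0.0424). The GSTF12 call was lost in 10 of the 12 fits that left out 1 array (adjusted p from 0.055 to 0.10). The locus AT4G14090, at 9.74, 10.8 and 8.38 in light sucrose and 6.43, 6.95 and 5.84 in dark sucrose, showed this order too (difference 2.86, adjusted p = 0.0316), and its call was lost in 7 of the 12.

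The earlier steps of the flavonoid pathway and its regulators differed less. TT5, chalcone isomerase, differed by 1.67 and UGT78D2, a flavonoid glucosyltransferase, by 1.39. TT4, chalcone synthase, rose by 2.84 in light, with a change of 1.49 in darkness, and a difference of 1.35 with an SE of 1.1 was not called (adjusted p = 0.56). The MYB factor PAP1 (AT1G56650), an activator of the pathway, rose in both conditions, by 3.25 in light and 1.61 in darkness (difference 1.64, adjusted p = 0.141). TT8, its bHLH partner, had 1.6 (adjusted p = 0.067). MYBL2, a repressor of anthocyanin synthesis, fell by 3.39 in light and fell by 3.08 in darkness, and its difference of -0.30 was not called.

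Starch genes were called at 4 of 32 features (12.5%, against 6.29% of all features). The plastid enzyme ADP-glucose pyrophosphorylase makes the substrate of starch synthesis, and its large subunit gene APL3 is known to be induced by sucrose. APL3 rose in both conditions, from 6.07, 5.97 and 5.45 to 10.3, 10.5 and 10 in light and from 5.48, 5.83 and 4.90 to 8.45, 8.65 and 7.79 in darkness. The rise was 21.8-fold in light and 7.42-fold in darkness, and the sucrose groups did not overlap (difference 1.55, SE 0.39, adjusted p = 0.0393). APL4, another large subunit, rose in light from 5.47, 5.36 and 5.34 to 8.05, 7.80 and 6.62, and its change in darkness was not called (difference 1.74, adjusted p = 0.0347), and the starch phosphorylase PHS1 (AT3G29320) differed by 0.84. GPT1, the plastid importer of glucose 6-phosphate, differed by -0.65. GPT2, of the same function, rose in both conditions by 6.06 and 4.88, and its difference of 1.18 was not called. Each of the 4 starch calls was lost in 9 or 10 of the fits without 1 array.

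Trehalose 6-phosphate is a signal of sucrose status, made by synthases (TPS) and removed by phosphatases (TPP). Of 14 trehalose features, 3 were called (21.4%, against 6.29% of all features), all negative. TPS11, a synthase-like protein, fell in light from 9.15, 9.31 and 8.39 to 5.01, 5.02 and 5.25, a change of -3.86. In darkness it went from 8.90, 9.12 and 8.94 to 7.21, 7.75 and 8.79, a change of -1.07, with dark sucrose arrays that were all above those of light sucrose (difference -2.79, SE 0.48, adjusted p = 0.00694). The related TPS8 fell by 3.16 in light and fell by 3.1 in darkness. TPS9 fell by 3.63 in light and fell by 2.92 in darkness, and neither was called for the difference. The phosphatase genes TPPJ (-1.70) and ATTPPA (-1.55) rose in darkness, and the latter was also called as a rise in light.

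Genes of energy starvation are repressed by sugar and induced in darkness, and they include enzymes that break down branched-chain amino acids. In light sucrose lowered 10 of the 11 features and in darkness 7. The difference was called in 4 (36.4%, against 6.29% of all features), of which 3 were positive. BCAT-2, a branched-chain aminotransferase, stood at 6.77, 6.47 and 6.24 in the light controls, 4.67, 4.46 and 4.57 in light sucrose, 8.13, 8.53 and 9.11 in the dark controls and 4.96, 4.48 and 4.71 in dark sucrose. Both sucrose groups thus overlapped, and the dark controls were above all other arrays (difference 1.95, SE 0.32, adjusted p = 0.00562).

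IVD, isovaleryl-CoA dehydrogenase of leucine breakdown, had the same form, at 5.26, 5.16 and 4.75 in light sucrose and 5.14, 5.45 and 5.67 in dark sucrose, with 7.25, 7.31 and 6.68 in the light controls and 8.67, 8.96 and 9.28 in the dark controls (difference 1.52, adjusted p = 0.0163). DIN4, a subunit of the branched-chain keto acid dehydrogenase, differed by 1.04 (adjusted p = 0.0283). Other starvation markers fell without a called difference: SEN1 (AT4G35770) fell by 4.56 in light and fell by 4.88 in darkness, and ASN1, asparagine synthetase, fell by 3.78 and fell by 4.55.

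DIN2 (AT3G60140), a beta-glucosidase named for its induction in darkness, was the exception of the energy starvation list. Sucrose lowered it in light, from 7.00, 6.58 and 6.61 to 5.67, 5.46 and 5.56. In darkness sucrose raised it, from 7.83, 7.85 and 8.36 to 10.1, 10.6 and 10.9. The 4 groups did not overlap at all (difference -3.67, SE 0.30, adjusted p = 0.00016). DIN2 was one of the 8 features that fell in light and rose in darkness, together with UGT75B1, a glucosyltransferase (-3.77), YLS9, a defence and senescence gene (-2.77), the cytochrome P450 gene CYP72A8 (-2.80), and the loci AT2G36770 (-3.87), AT3G10815 (-2.58), AT1G24145 (-2.56) and AT1G05340 (-2.55).

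The reverse pattern was seen at CRK30 (AT4G11460), a cysteine-rich receptor-like kinase. It rose in light from 9.02, 8.62 and 9.54 to 9.97, 10 and 10.5 and fell in darkness from 8.64, 8.4 and 8.41 to 7.53, 7.24 and 7.37 (difference 2.21, SE 0.30, adjusted p = 0.00218). Each of these 9 features kept its call for the difference in every fit that left out a single array. The rise and fall in each condition alone were not called again in those fits.

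The dark sucrose group also lay lowest at several of the largest positive differences. The 12 expressed features with the largest positive differences included, besides LDOX, DFR, GSTF12 and AT4G14090, 5 with the dark sucrose group apart. DEWAX (AT5G61590), an ERF factor known to repress wax synthesis, stood at 8.32, 8.24 and 8.67 in the light controls, 7.33, 7.48 and 7.56 in light sucrose, 8.17, 8.20 and 8.57 in the dark controls and 4.43, 4.41 and 5.22 in dark sucrose (difference 2.67, SE 0.30, adjusted p = 0.000793). MES10, a methyl esterase, fell in darkness from 9.24, 8.78 and 7.97 to 6.21, 6.23 and 6.35, against 9.79, 10.2 and 9.52, then 9.86, 9.96 and 9.40 in light. The others were AT3G19850 (2.70), AT4G21870 (2.50) and AT5G19190 (2.53), of which the last fell in both conditions. AT5G01740 (2.38) had its highest group in the dark controls, AT5G05365 (2.27) its lowest in the light controls, and AT1G28660 (2.56) its highest in light sucrose.

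Sucrose lowered many photosynthesis genes, and few of them were called for the difference. In chlorophyll synthesis 3 of 18 features fell in light and 9 in darkness. The difference was called for PORB and GUN4 (11.1%, against 6.29% of all features), and the list median was 0.27. PORB, a light-dependent protochlorophyllide reductase, had 10.9 in each of the 3 light controls, 10.9, 10.6 and 10.3 in light sucrose, 10, 9.96 and 9.70 in the dark controls and 7.32, 7.25 and 8.12 in dark sucrose (difference 2.02, SE 0.32, adjusted p = 0.00422). GUN4, a regulator of magnesium chelatase, fell in darkness from 12.3, 12.2 and 11.4 to 9.12, 9.52 and 9.41 and had 11.3, 11.6 and 11.2 in light sucrose (difference 1.87, adjusted p = 0.00813). The lowest light sucrose array of both genes was above all of dark sucrose.

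Of 44 features of photosystems and light harvesting, 2 were called (4.55%, below the 6.29% of all features): PSAD-1, a photosystem I subunit (1.69), and LHCB4.2, a light-harvesting protein (1.5). Sucrose lowered 10 of the 44 in light and 19 in darkness, and the list median of the difference was 0.17. The PSAD-1 call was lost in 6 of the 12 fits without a single array. In the Calvin cycle list 9 of 18 fell in light and 8 in darkness. The difference was called for 2 (11.1%), CP12-1 (0.79) and the transketolase gene at AT3G60750 (-0.54), and both were lost in 11 of the 12. The CP12-1 call was also lost with all 24 arrays in the fit (adjusted p = 0.186). None of the 84 features of the plastid genome and none of the 36 of the mitochondrial genome was called by limma, with 0 and 1 at an unadjusted p under 0.05.

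Among B-box zinc finger genes, whose proteins act in light signalling, 4 of 31 were called with a higher effect in light. Another 2 were called with a higher effect in darkness (19.4% in all, against 6.29% of all features). BBX14 fell in darkness from 10.5, 10.3 and 10.5 to 7.26, 7.46 and 7.58, against 10.3, 10.4 and 10.6, then 9.70, 9.53 and 9.45 in light (difference 2.14, SE 0.18, adjusted p = 0.000231). BBX32 (-1.36) and LZF1 (-1.13) had differences of the other sign. LZF1 was the only call among 20 features of light signalling (5%, near the 6.29% of all features). SWEET11, a sucrose exporter of the phloem, fell in both conditions, to 10.4, 10.3 and 10.4 in light and 9.71, 9.84 and 9.61 in darkness (difference 0.93, SE 0.14, adjusted p = 0.0033). With ESL1 (-1.23), it was one of 2 calls among 19 sugar transporters (10.5%).

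Growth genes split by member. Xyloglucan endotransglucosylases loosen and rejoin the hemicellulose of the cell wall. XTH18 rose in darkness from 4.18, 4.49 and 3.84 to 7.61, 8.16 and 8.71, with 5.34, 4.11 and 5.09 in light sucrose (difference -3.27, adjusted p = 0.00237), and TCH4, known to respond to touch, differed by -1.52. XTH4 fell in darkness, from 8.93, 8.59 and 8.36 to 7.15, 7.53 and 7.53, and had 9.58, 9.47 and 8.88 in light sucrose (difference 1.81, adjusted p = 0.0147). XTH9 (1.45) and XTH16 (1.02) were called with the same sign, the latter at a highest group mean of 5.37, below the cut of 6.4. The other 28 of the 33 features were not called, and the share called was 15.2%. Of 75 SAUR features, small auxin-induced proteins, 4 were called with a positive and 5 with a negative difference (12% in all). Of 32 Aux/IAA repressors 1 was called (3.12%), against 6.29% of all features.

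Ribosomal protein genes had small differences, most of them positive. Of 234 features of cytosolic ribosomal proteins, 12 were called with a higher sucrose effect in light and 1 with a higher effect in darkness (5.56% in all, near the 6.29% of all features). Of the 234 estimates 217 were positive. The median difference was 0.36, against 0.06 over all features and 0.11 over those kept by the filter on low values. Sucrose raised 58 of the 234 above 2-fold in light and 7 in darkness, with median changes of 0.76 and 0.38. RPL3B stood at 7.04, 7.14 and 7.11 in light sucrose and 5.94, 5.98 and 5.94 in dark sucrose, with controls between 5.46 and 6.12 (difference 1.0, adjusted p = 0.0202). The negative call was SAG24 (-0.65), a ribosomal protein gene linked to senescence. Of the 13 calls, 1 was kept in every fit without a single array.

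That gene, the ribosomal protein locus AT1G57660, had the largest positive difference of the family, 2.06, at 5.80, 5.67 and 5.14 in light sucrose and 4.01, 4.09 and 4.75 in dark sucrose. Its light controls, at 3.02, 3.47 and 4.05, were below the dark controls, at 4.29, 4.32 and 4.33. Its highest group mean, 5.54, was below the 6.4 used as the cut for expressed features. Its polysomal difference was 0.37, and its call was lost with all 24 arrays and culture as a random block (adjusted p = 0.0645). In the ribosome biogenesis list all 25 estimates were positive, with a median of 0.39. Of these 1 was called (4%, below the 6.29% of all features), RID2 (0.71), a methyltransferase. Sucrose raised 16 of these 25 in light and 2 in darkness.

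Several responses showed no called difference at all in these lists. None of 20 features of nitrogen assimilation was called by limma, with a median of 0.04 and 7 features at an unadjusted p under 0.05. NIA1, nitrate reductase, fell in both conditions, from 12.5, 12.3 and 12.2 to 10.8, 10.5 and 10.9 in light and from 12.6, 12.7 and 12.4 to 10.7, 10.8 and 10.5 in darkness (difference 0.30, SE 0.21, adjusted p = 0.481). Nor was any of 20 features of the circadian clock (4 at an unadjusted p under 0.05), 28 of cell division (3), 21 expansins (3) or 10 features of reference genes (3). The list medians were -0.32 for the clock, 0.02 for cell division, 0.08 for expansins and -0.32 for reference genes. Over all features the median was 0.06. Of the reference gene estimates 2 of 10 were positive, and of the clock estimates 7 of 20. At the 6.29% called over all features, lists of this size would hold few calls. A missed threshold does not show that the responses of these genes were equal.

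**Figure D4:**
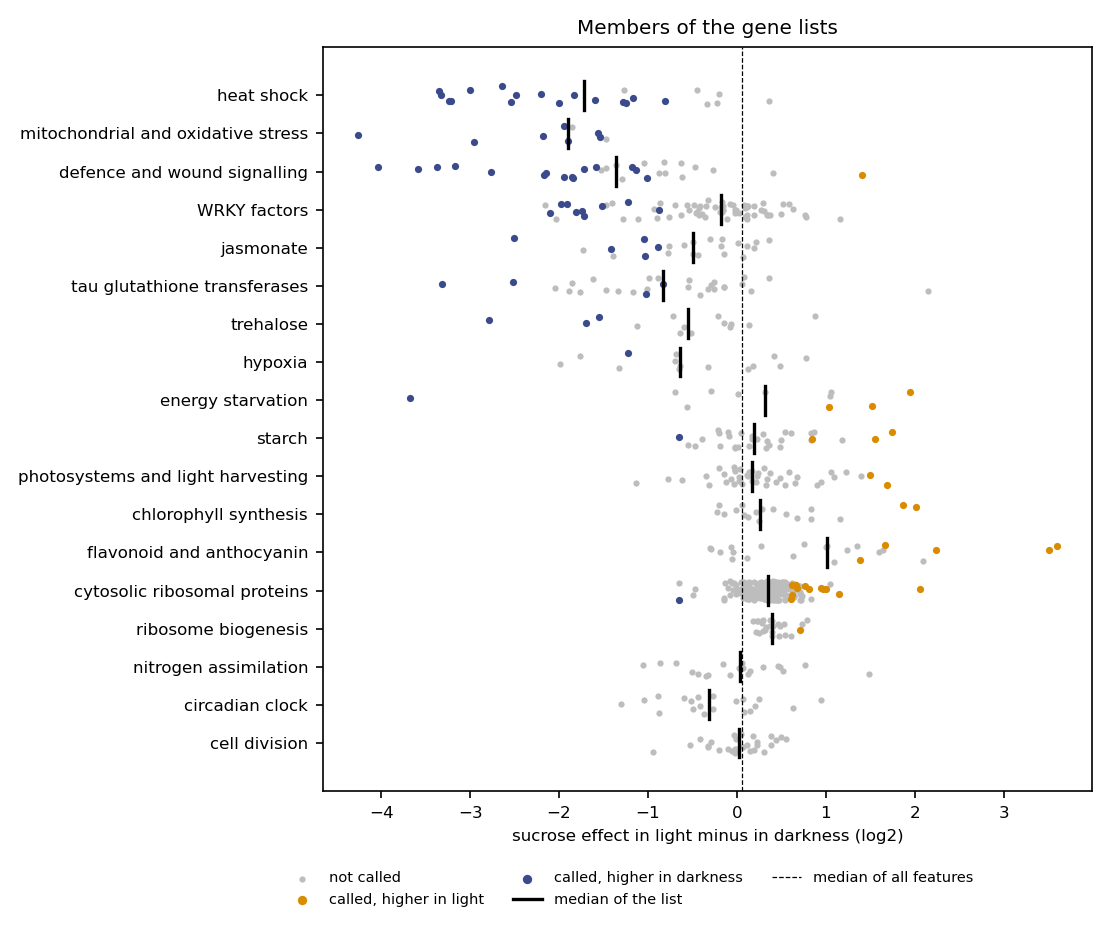
Difference between the sucrose effect in light and in darkness (horizontal axis, log2) for the members of 18 gene lists, with called members in orange (higher in light) or blue (higher in darkness), other members in grey, the list median as a bar and the median of all features as a dashed line. The heat shock, mitochondrial and defence lists lie to the left, the flavonoid list to the right, and the ribosomal proteins in a narrow band at a median of 0.36.

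The small polysome fraction of the same cultures gave a second readout, which is not independent of the first. Of the 1912 called features, 1587 were also called with the same sign there and 26 had an estimate of the other sign. That fraction held 3507 calls in a fit of all 24 arrays, while the 1912 came from the total RNA arrays alone. With all 24 arrays in the fit the total RNA count was 2716, so 3507 and 1912 cannot be compared directly. The polysomal differences were -4.58 for BCA3, -4.76 for BGLU28, 4.12 for LDOX and 4.44 for DFR.

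The number of calls depended strongly on the arrays that entered. Leaving out 1 array gave between 973 and 2176 calls. The count fell by more than 1.5 times without light sucrose replicate 8 (973), dark control replicate 8 (1009), light control replicate 7 (1086), dark control replicate 7 (1116), light sucrose replicate 7 (1151) or light control replicate 8 (1220). With all arrays of replicate 7 left out 65 features were called, without replicate 8 there were 13, and without replicate 9 there were 2398. Of the 1912 calls, 858 (44.9%) were kept with the same sign whichever single array was left out, 621 with a higher effect in darkness and 237 with a higher effect in light. They included 15 of the 16 heat shock calls, 5 of the 7 mitochondrial, 8 of the 16 defence and wound, 2 of the 5 flavonoid and none of the 4 starch calls. Among the genes named with values above, calls were also lost in at least 1 of these fits at HSFA2, UGT74E2, ZAT6, CZF1, SZF1, PAD4, CERK1, PR5, WRKY55, JAZ10, ERF7, the 3 glucosinolate genes, UGT78D2, DIN4, PSAD-1, LZF1, ESL1, TCH4, XTH9, RPL3B, SAG24 and RID2. Of the 24 features with the largest differences, 20 were kept, all but LDOX, AT4G14090, GSTF12 and AOX1D.

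**Figure D5:**
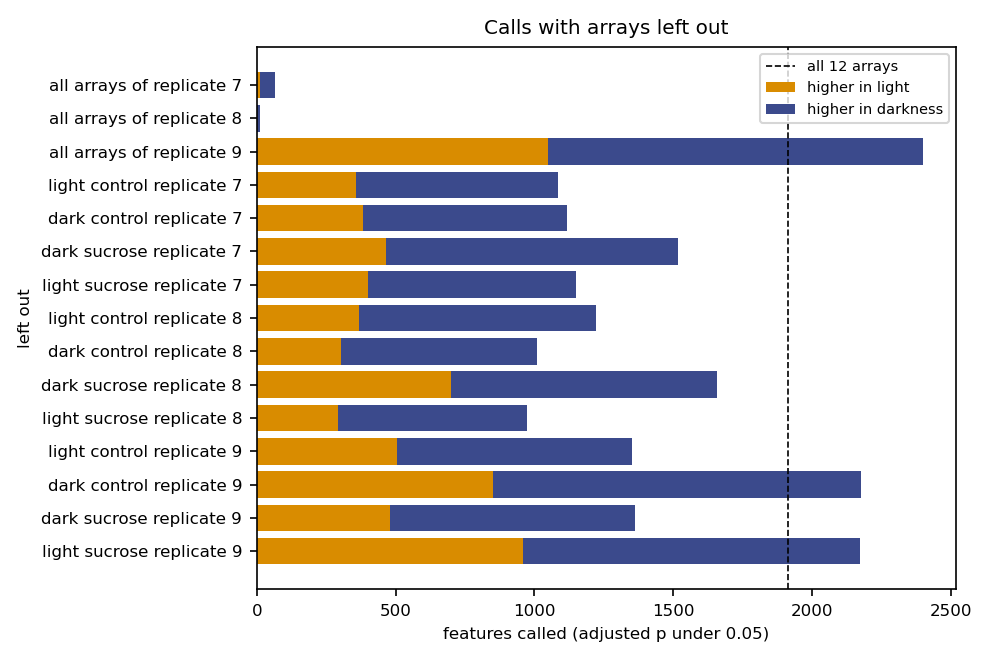
Number of features called (horizontal axis) when the arrays named on the vertical axis were left out, divided into features with a higher sucrose effect in light (orange) and in darkness (blue), beside the 1912 calls of all 12 arrays (dashed line). Without replicate 7 or 8 the calls nearly vanished, to 65 and 13, and without replicate 9 they rose to 2398.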

How the data were processed

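The deposited values were log2 expression values made by the authors with RMA (background correction, normalization between arrays and summary per gene feature) from AGRONOMICS1 arrays; RMA and limma are named in the submitters' processing notes, and the genome build of the feature positions is not given in the sources used here. RMA equalizes the distributions of the arrays, so that a change of most transcripts in one direction would not be seen. Array medians lay between 5.92 and 6.01. The number of arrays, 3 a group, limits the precision, and the median SE of a difference was 0.23.

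The 371 control features of the array were left out and 30386 gene features, at 30174 loci, were kept without a filter. The means of the 4 treatments were estimated from the 12 total RNA arrays by limma 3.58.1 in R 4.3.3, with empirical Bayes moderation (8 residual degrees of freedom, prior 3.38) and Benjamini-Hochberg adjustment over all features. Total and polysomal RNA of 1 culture are not independent, and polysomal arrays therefore entered only the values given for that fraction and named alternatives. The procedure was also run on simulated data with noise drawn independently for each array. That setting lacks the shared deviations of same-numbered arrays, and no outcome of it is used here. Names came from the RefSeq table of TAIR10.1, which held 29586 of the loci (98.1%).

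The members, gene lists and tests were chosen with earlier results of these data known. A list member counted only where the table gives that name to the locus, and the ribosomal proteins are the loci in the study's table of paralogs. Named were, of the expressed features (highest group mean above 6.4) with 1 sign in 3 replicates, the 12 largest differences per direction, and, expressed or not, up to 3 called members per list and direction, the first members of the heat shock, hypoxia and nitrogen lists, and the features with opposite calls. Other list members were named after their values were seen. Promoter sequences were not analysed here. The alternatives changed the arrays, block, prior, weights, filter, scaling and threshold.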

Additional observations from a re-analysis of the deposited data

Results flagged for a closer look

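The difference between the sucrose effects in light and in darkness was itself tested, and it passed the threshold in 1912 features. In 9 of them sucrose changed the transcript above 2-fold in opposite directions. The light minus dark differences were -2.55 for AT1G05340, -3.77 for UGT75B1, -2.56 for AT1G24145, -2.77 for YLS9, -3.87 for AT2G36770, -2.58 for AT3G10815, -2.80 for CYP72A8 and -3.67 for DIN2, which fell in light and rose in darkness, and 2.21 for CRK30, which rose in light and fell in darkness.

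The light minus dark difference was also compared between total and small polysome RNA, with culture as a block in limma. It differed in 3 features (adjusted p = 0.0258 for each), with 2000 at an unadjusted p under 0.05. Total minus polysomal, the values were -1.52 for AGL97 (-0.89 in total and 0.63 in polysomal RNA), -2.81 for AT1G70885 (-1.84 and 0.96) and 2.46 for AT2G10160 (1.27 and -1.18). In total RNA the 4 group means of AGL97 and AT1G70885 were all below 5, and those of AT2G10160 between 5.18 and 6.05. Groups of 3 arrays are too small for the search for single outlying arrays.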

How the results depend on the processing

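With all 12 arrays 1912 features were called, 774 with a higher sucrose effect in light and 1138 with a higher effect in darkness. With all 24 arrays in 8 group means the count was 2716, of which 1242 were higher in light, and with culture as a random block 3075, of which 1413 were higher in light. Array weights gave 3696 (1895 and 1801). The filter on low values gave 2892, with 1435 higher in light. Requiring a difference over 2-fold left 1119, with 281 higher in light, and an adjusted p under 0.01 left 594 (146 and 448). The other changes of scale or prior moved the count by less than 1.5 times, to between 1840 and 2265. The share with a higher effect in darkness was 62.6% with arrays centred on their median, 56.5% after quantile normalization, 50.4% with the filter and 48.7% with array weights. Leaving out a replicate number gave 13 to 2398 calls, with 0 to 1049 higher in light and 13 to 1349 in darkness, and these fits had 4 residual degrees of freedom. Leaving out 1 array gave 973 to 2176, with 293 to 959 and 680 to 1325. The cause of these shifts was not tested. With the replicate number as a block 3032 features were called, 1333 of them higher in light. Same-numbered arrays deviated together with correlations of 0.0147 to 0.142 for replicate 7, 0.102 to 0.262 for replicate 8 and 0.191 to 0.305 for replicate 9. All were positive, and those of replicate 7 were weak. The main fit did not use the number as a block, as the study's methods name none, so its 1912 calls leave this shared deviation aside. The sample titles group the arrays by replicate number, and 10 of 12 arrays correlated best with their own number. What same-numbered cultures had in common is not stated. No called feature changed sign in any alternative, but this carries little weight. A changed block, prior, threshold or filter leaves the estimates as they are, and all 1912 calls had 1 sign in all 3 replicates. The count of calls kept with every single array left out was chosen after seeing the data.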
